A study of Mus musculus with 6 samples.

Results

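Leukocytes from irradiated hearts of mice labelled STING knockout were compared with leukocytes from irradiated hearts of wild-type mice. The comparison rested on 4 of the 6 libraries of the study, namely 2 labelled STING knockout and 2 wild type, with 21847 of the 32761 cells that passed filtering. Both groups were on the C57Bl6J background, had received 12 Gy to the heart in a single fraction, and were collected 28 days later as CD45+ cells, CD45 being the surface protein that marks leukocytes. The remaining 2 libraries came from sham-treated hearts, whose titles give the same background and no altered gene, and are shown as the unirradiated level. Sham-treated hearts of the knockout were not analysed here, and a genotype difference present without irradiation cannot be told apart from one that needs it. The labels name no allele for the knockout beyond "Tmem" and "STING KO", and they give no animal, pool, batch or date, so the p-values below measure the spread between libraries.

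STING, encoded by Tmem173, is a protein of the endoplasmic reticulum that responds to cyclic dinucleotides. The enzyme cGAS makes such a dinucleotide when it meets DNA in the cytosol, and STING then recruits the kinase TBK1, which activates the transcription factor IRF3. The outcome is transcription of type I interferon, and STING also activates NF-kB and its cytokines. Type I interferon acts through its receptor on the interferon-stimulated genes, among them Irf7, which amplifies the response. Ionizing radiation damages DNA and can place it in the cytosol, and cardiac macrophages are among the cells that carry this pathway.

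Transcripts of the targeted gene were counted in every library, in macrophages somewhat lower under the knockout label without passing the test. In macrophages Tmem173 (ENSMUSG00000024349, chromosome 18, 35733679 to 35740554, minus strand, GRCm38) was at 55.2 and 52.8 CPM (UMIs scaled to a library's normalised total) in irradiated wild type. The libraries labelled knockout had 47.5 and 45.6 CPM, a log2 fold change of -0.21 ± 0.07 (SE, n = 2 against 2, edgeR quasi-likelihood test, adjusted p = 0.186). In T cells, B cells and endothelial cells the log2 fold change was -0.49, 0.13 and -0.21, with adjusted p of 0.785, 0.809 and 0.677 by the same test. A 3′ tag is counted near the end of the transcript and does not read the rest of it, so this gene does not check the labels. The groups are therefore called the wild-type libraries and the libraries labelled knockout.

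Lineages were set by marker transcripts within each cell: at least 10 UMIs of C1qa, C1qb and C1qc together for macrophages, at least 2 of Cd3e, Cd3d and Cd3g for T cells, at least 2 of Cd79a and Cd79b for B cells, and at least 2 of Pecam1 and Cdh5 for endothelial cells. The macrophage sums held 1533 and 2265 cells of wild type and 2160 and 2351 of the libraries labelled knockout, T cells between 109 and 182, B cells between 379 and 1050, and endothelial cells between 211 and 637. Markers that the macrophage rule did not use followed that name. The 10 further macrophage markers, such as Adgre1, Csf1r and Cd68, summed to 18973 to 19780 CPM in macrophages of the 4 libraries. In B cells they summed to 2528 to 3043 CPM. The T cell sums were more mixed. There the 12 further T cell markers summed to 3579 and 3782 CPM in wild type and 3703 and 3152 CPM under the knockout label. Neutrophil markers in T cells summed to 875 and 3218 CPM in wild type. Under the knockout label they reached 5053 and 4435 CPM, above the T cell markers. Endothelial cells do not carry CD45, yet the 11 further endothelial markers summed to 19536 to 21516 CPM in the cells of that name, so the sort had let such cells through. Macrophages of the libraries labelled knockout were read more deeply, with medians of 9199.5 and 8794 UMIs per cell against 7523 and 6351. Cells that met more than 1 lineage rule made up 10.1% and 10.2% of the libraries labelled knockout and 11.5% and 15.1% of the wild-type libraries, and were left out of the lineages. At most 0.513% of the barcodes of the smaller library were shared between any 2 libraries. That largest share, 30 barcodes, was between the 2 libraries labelled knockout. The next largest was 0.256%, 12 barcodes, between the sham libraries. The 2 libraries of a group differed by far more than sampling noise, with chi-square values per degree of freedom of 41.2 for wild type and 34.3 for the libraries labelled knockout.

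Macrophages gave the most genes that passed the test. Of 13093 genes tested, 84 passed (0.642%), of which 53 fell (0.405%) and 31 rose (0.237%), in the knockout-labelled libraries at an edgeR adjusted p under 0.05, with a median log2 fold change of 0.00 over all of them. Of the lists examined, that of interferon-stimulated genes held the most of the 53 that fell: 10 of the 56 tested members of the list fell, none rose, and 46 did not pass. Their median log2 fold change was -0.64, and 55 of the 56 were below 0. In 50 of the 56 both libraries labelled knockout lay below both wild-type libraries, a pattern shown by 27.1% of all genes tested in macrophages.

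Irf7, the interferon-induced transcription factor that amplifies type I interferon synthesis, had the largest fall of the list that passed the test (ENSMUSG00000025498, chromosome 7, 141262706 to 141266481, minus strand). Its level was 222 and 168 CPM in irradiated wild type and 42.6 and 64.6 CPM in the knockout-labelled libraries, while the sham libraries had 40.9 and 44.3 CPM. The log2 fold change was -1.86 ± 0.21 (SE, edgeR adjusted p = 0.0259). The levels in the knockout-labelled libraries were thus next to those of sham hearts, and the wild-type range lay above both.

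Cxcl10, a chemokine that attracts T cells through CXCR3, followed the same order. It was at 449 and 346 CPM in wild type, 117 and 163 CPM in the knockout-labelled libraries and 131 and 108 CPM in sham, with a log2 fold change of -1.502 ± 0.19 (edgeR adjusted p = 0.0361). Ifit3, which encodes an antiviral protein with tetratricopeptide repeats, was at 113 and 88.8 CPM against 25.3 and 42.5 CPM, and its log2 fold change was -1.57 ± 0.23 (edgeR adjusted p = 0.0409). For both genes the groups did not overlap, and the second library labelled knockout was the higher of its pair.

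Further members that fell were Oasl1 (log2 fold change -1.61 ± 0.22), a regulator of Irf7 translation, Rsad2 (-1.58 ± 0.23), which encodes the antiviral enzyme viperin, and Usp18 (-1.28 ± 0.16), the protease that removes ISG15 and damps the interferon receptor. Oas1a fell by 1.10 on the log2 scale and Oasl2 by 0.88, both of the oligoadenylate synthetase family, whose close copies a short 3′ tag may not keep apart. Bst2, which encodes the virus-tethering protein tetherin, and Oas2, both named after their values were seen, fell by 0.84 and 0.62. Oas2 differed from the others in its sham level, which at 40.5 and 39.8 CPM was close to the 43.5 and 43.1 CPM of irradiated wild type, with 26.3 and 30.0 CPM in the knockout-labelled libraries.

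**Figure D1:**
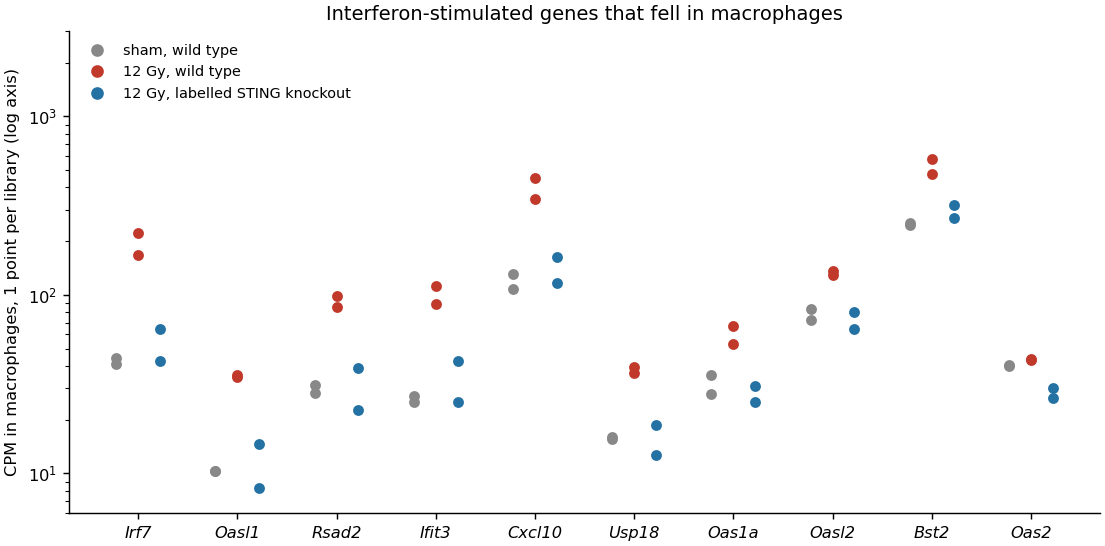
Levels of the 10 interferon-stimulated genes that fell in macrophages, in CPM on a log axis, with 1 point per library for sham wild type, irradiated wild type and irradiated libraries labelled STING knockout. For each gene both wild-type irradiated points lie above both points of the libraries labelled knockout, as for Irf7 at 222 and 168 CPM against 42.6 and 64.6 CPM.

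The interferon-stimulated response element, a DNA site bound by interferon regulatory factors, is built around 2 GAAA repeats. GAAA followed by any 2 bases and a further GAAA was searched on both strands in the 250 bases before each gene start in the RefSeq promoters of GRCm38.p6. It occurred in 3.04% of all 27025 promoters, in 22 of the 44 promoters matched to the interferon-stimulated list, and in 7 of the 41 promoters matched to genes that fell in macrophages. Among genes that fell, it was in 5 of the 8 matched promoters of the interferon-stimulated list and in 2 of the 33 others. None of the 22 matched promoters of genes that rose held it. Of the 10031 matched promoters of genes tested in macrophages 2.84% held it, so 22 promoters are too few to show a difference. The 7 promoters are those of Bst2, Cxcl10, Ifit3, Oas1a, Rsad2, Socs1 and Rpl38, and 5 of these genes belong to the interferon-stimulated list. Windows of 60 bases before 4 of them are printed to show how the match sits before genes whose levels are given above, 5′ to 3′ on the strand of the gene, with every match in capitals. In Ifit3 the matches read on the opposite strand, and in Bst2 and Oas1a a pair of matches overlap. The promoters of Irf7, Oasl1 and Oasl2 hold no match in this window.
Bst2, chr8:71537565-71537624, minus strand: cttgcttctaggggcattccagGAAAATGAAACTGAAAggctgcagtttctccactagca
Cxcl10, chr5:92349068-92349127, minus strand: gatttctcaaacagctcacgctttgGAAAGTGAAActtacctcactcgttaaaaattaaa
Ifit3, chr19:34583365-34583424, plus strand: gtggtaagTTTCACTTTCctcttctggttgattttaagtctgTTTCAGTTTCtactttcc
Oas1a, chr5:120907526-120907585, minus strand: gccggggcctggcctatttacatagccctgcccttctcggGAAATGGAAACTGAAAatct
The first match starts 213 bases before the start of Cxcl10, 156 before Ifit3, 130 before Bst2 and 20 before Oas1a.

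The sensors and signal carriers upstream of interferon did not pass the test in macrophages. None of the 25 tested members of the list of STING and cytosolic nucleic acid sensing genes was called, the median log2 fold change was -0.09, and 16 were below 0. Ifnb1, the gene of interferon beta, was at 1.32 and 2.55 CPM in wild type and 0.423 and 0.320 CPM in the knockout-labelled libraries (log2 fold change -2.38 ± 0.45, edgeR adjusted p = 0.0774), with 0.0845 and 0.140 CPM in sham. These are low levels, and the groups did not overlap. The RNA sensors Ifih1 and Ddx58 had log2 fold changes of -0.59 and -0.53 with edgeR adjusted p of 0.0855 and 0.0886. Among the 16 interferon receptors, kinases and feedback genes 2 fell, namely Usp18 and Socs1, the suppressor of cytokine signalling. Socs1 was at 29.8 and 30.3 CPM in wild type and 15.6 and 16.9 CPM in the knockout-labelled libraries, with 24.1 and 25.0 CPM in sham. Its log2 fold change was -0.88 ± 0.08 (edgeR adjusted p = 0.0148).

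Antigen presentation genes were mostly lower without passing the test. In the list of MHC class I presentation 1 of 21 genes fell, H2-D1, a classical class I heavy chain (log2 fold change -0.55 ± 0.08, edgeR adjusted p = 0.0418), and 20 of 21 were below 0 with a median of -0.41. For 15 of the 21 both libraries labelled knockout lay below both wild-type libraries, against 27.1% of all genes. H2-K1 was at 2661 and 2169 CPM against 1281 and 1583 CPM (log2 fold change -0.75, edgeR adjusted p = 0.0703). Class I genes are close copies of one another, so reads of one can be credited to another. None of the 12 class II genes was called, with a median of -0.27. Of the 22 interferon-gamma response genes 1 fell, Socs1, and the median was -0.56.

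Inflammatory mediators that belong to the NF-kB arm fell in part. Tnf, the gene of tumour necrosis factor, was at 260 and 315 CPM in wild type, 150 and 148 CPM in the knockout-labelled libraries and 215 and 215 CPM in sham. Its log2 fold change was -0.95 ± 0.10 (edgeR adjusted p = 0.0169). Unlike Irf7, Tnf lay below the sham range in the knockout-labelled libraries. Of the 23 tested NF-kB and inflammatory cytokine genes 2 fell, Tnf and Ccrl2, a chemerin receptor, 21 were below 0, and the median was -0.42. In 17 of the 23 both libraries labelled knockout lay below both wild-type libraries, against 27.1% of all genes.

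Of 24 chemokines 3 fell, namely Cxcl10 and the inflammatory chemokines Ccl4 and Ccl3. Ccl4 was at 1362 and 1493 CPM in wild type and 709 and 817 CPM in the knockout-labelled libraries (log2 fold change -0.90 ± 0.09, edgeR adjusted p = 0.0166), and Ccl3 had a log2 fold change of -0.83 ± 0.11 (edgeR adjusted p = 0.0374). The monocyte attractants Ccl7 and Ccl2 were at log2 fold changes of -1.18 and -0.99 and did not pass, with edgeR adjusted p of 0.0503 and 0.0563. The list's median was -0.38. Cd69, an early activation antigen that interferon also induces, fell from 34.8 and 28.0 CPM to 13.3 and 14.4 CPM (log2 fold change -1.18 ± 0.15, edgeR adjusted p = 0.0361).

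Immediate early genes, which cells also switch on while a tissue is being dissociated, were mostly lower without passing the test. Of 27 such genes 2 fell, the transcription factor gene Egr2 (log2 fold change -0.86 ± 0.12) and Ier5 (-0.66 ± 0.09), 25 were below 0, and the median was -0.38. In 23 of the 27 the groups did not overlap and the libraries labelled knockout were lower, against 27.1% of all genes. The interferon-stimulated list, with 50 of 56, was thus not alone in this pattern. The 18 genes of cytosolic heat shock and the unfolded protein response had a median of -0.31, and 1 fell, Ddit3, the stress factor CHOP. The part of cell handling in the lower Tnf, chemokine and Egr2 levels was not tested. In macrophages 11 of the 13 mitochondrially encoded genes were below 0 and 10 were lower without overlap, against 27.1% of all genes. None of the 13 was called, with a median of -0.19. They summed to 65909 and 71942 CPM in wild type and 60340 and 59413 CPM under the knockout label, and their part in the macrophage differences was not tested.

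Targets of p53, the transcription factor that responds to DNA damage, fell in 2 of 29 cases. Cdkn1a, the cell cycle inhibitor p21, was at 619 and 722 CPM in wild type, 391 and 368 CPM in the knockout-labelled libraries and 439 and 503 CPM in sham (log2 fold change -0.82 ± 0.10, edgeR adjusted p = 0.0361). Phlda3, an inhibitor of AKT, was at 40.5 and 43.7 CPM against 27.0 and 24.6 CPM, which stayed above the sham level of 14.8 and 14.2 CPM (log2 fold change -0.71 ± 0.09, edgeR adjusted p = 0.0361). The list's median was -0.26. Among 38 cell cycle genes 1 fell, Cdc20, an activator of the anaphase-promoting complex, with 32.4 and 27.6 CPM against 18.0 and 18.9 CPM, and the list's median was -0.28.

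Macrophage identity genes did not pass the test. None of the 27 resident macrophage genes was called (median log2 fold change 0.07), nor any of the 24 monocyte-derived (0.04), 25 lipid-associated (-0.05) or 22 complement and efferocytosis genes (0.15) that were tested. The resident gene Mrc1, the mannose receptor, was at 612 and 660 CPM in wild type and 881 and 814 CPM in the knockout-labelled libraries, with edgeR adjusted p = 0.0775. With every cell thinned to 3000 UMIs, 46.5% ± 2.8 of wild-type macrophages and 51.5% ± 2.2 of those labelled knockout (SD, n = 2) held a UMI of Ccr2, the receptor of recruited monocytes. Two-sided exact permutation gave p = 0.333, the smallest that 2 against 2 libraries allow. In B cells, read to the same depth, the shares were 11.5% in both groups. Timd4, a gene of long-resident macrophages, had a UMI in 6.88% ± 1.79 and 6.04% ± 1.44 of macrophages (SD, n = 2, exact permutation p = 0.667), and in sham in 21.9% ± 2.4. Without thinning the Ccr2 shares were 54.8% and 60.7% and the Timd4 shares 10.7% and 10.7%. Leaving out shallower cells removed 91 and 240 wild-type and 90 and 155 macrophages labelled knockout.

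**Figure D2:**
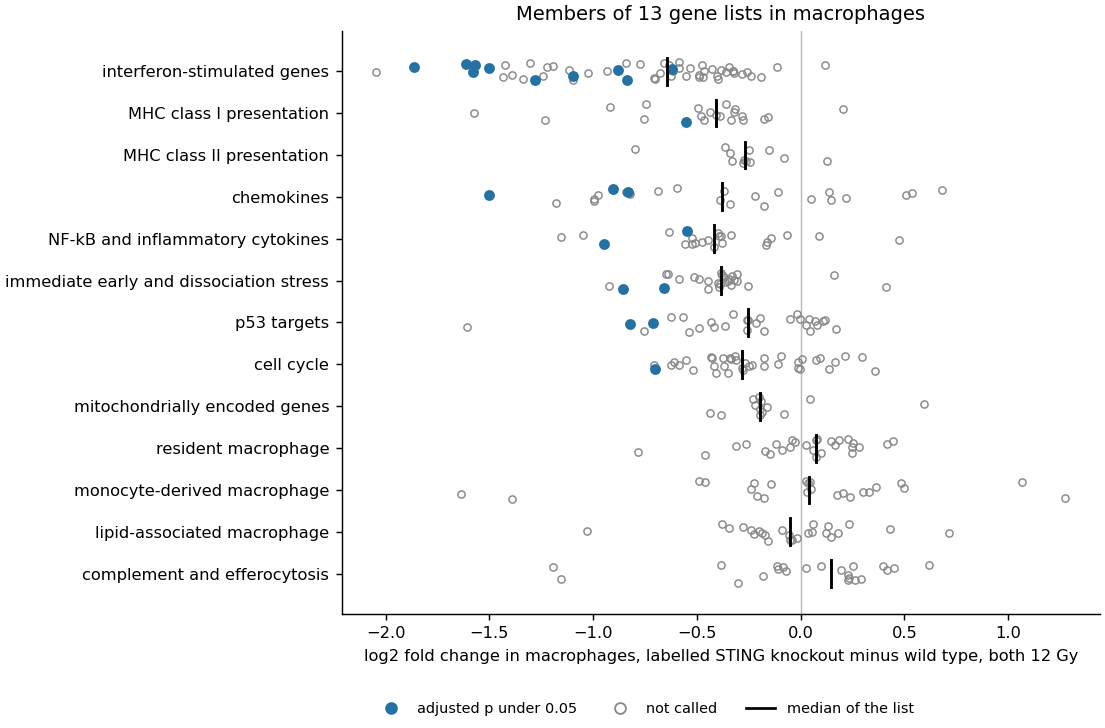
Log2 fold change of each tested member of 13 gene lists in macrophages, libraries labelled STING knockout minus wild type, both irradiated, with filled points at an edgeR adjusted p under 0.05 and a black bar at the list's median. The interferon-stimulated list lies to the left with a median of -0.64 and 10 filled points, while the resident and monocyte-derived lists are centred at 0.07 and 0.04 with none.

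Genes that rose in macrophages came from no single list. Aldh1a3, a retinaldehyde dehydrogenase that makes retinoic acid, rose most: 0.387 and 0.0639 CPM in wild type, 25.0 and 25.6 CPM in the knockout-labelled libraries, and 0.507 and 0.0699 CPM in sham (log2 fold change 6.86 ± 0.42, edgeR adjusted p = 0.0033). Ccdc152 rose from 6.03 and 4.60 CPM to 24.2 and 21.3 CPM, but 439 of its 1358 exon bases lie opposite exons of Selenop. The strand use in counting is not stated, and the part of Selenop reads in this rise was not tested. Rpgrip1 (log2 fold change 1.33 ± 0.13) shares 1057 exon bases with Supt16 on the opposite strand, and Adap2os (1.31 ± 0.13) overlaps Adap2 in the same way. Slc39a1, a zinc transporter, went from 42.7 and 49.2 CPM to 86.2 and 95.9 CPM. It was also called in endothelial cells, from 49.3 and 47.0 CPM to 89.7 and 115 CPM (log2 fold change 1.08 ± 0.14, edgeR adjusted p = 0.0493).

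Smaller rises that passed were those of Notch2, a Notch receptor (49.0 and 52.7 CPM to 79.2 and 92.7 CPM), Il1rl1, the interleukin-33 receptor (18.8 and 19.99 CPM to 33.8 and 30.3 CPM), and Fhl3, Abhd2 and Nxpe5. Il1rl1 was at 36.9 and 30.6 CPM in sham, so that irradiated wild type was the group that stood apart. Il1rl1 also marks type 2 innate lymphoid cells, and none of the other 6 tested markers of those cells was called in macrophages. Xist, the RNA that silences an X chromosome in females, rose from 382 and 419 CPM to 611 and 690 CPM, together with its antisense partner Tsix. Tsix shares 1980 of its 6077 exon bases with Xist on the opposite strand, and the part of Xist reads in its rise was not tested. Y-linked Ddx3y was also present in every library, at 41.3 and 40.9 CPM in wild type and 33.8 and 30.6 CPM in those labelled knockout, and the part of the sex of the animals in the Xist difference was not tested.

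Other genes that fell were Hist1h2ap, one of many near-identical histone H2A genes (305 and 188 CPM to 39.5 and 46.2 CPM, log2 fold change -2.52 ± 0.26), and Ssbp2, which encodes a protein that binds single-stranded DNA (14.9 and 17.1 CPM to 6.81 and 6.03 CPM, log2 fold change -1.32 ± 0.12). The ribosomal protein genes Rpl38, Rpl39, Rps21 and Rps27, 4 genes named after their values were seen, fell by 0.40 to 0.43 on the log2 scale. Ftl1, the ferritin light chain, fell by 0.35.

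The macrophage calls depended on single libraries. Leaving out the second wild-type library left 4 genes called, the first wild-type library 13, and the first and second libraries labelled knockout 8 and 51. Without the second library labelled knockout more of the interferon-stimulated genes passed than with all libraries, and without any other irradiated library fewer did. With a mitochondrial limit of 5%, or with cells meeting more than 1 lineage rule kept, none of the interferon-stimulated genes passed. The 5% limit left 396 and 341 wild-type macrophages and 534 and 675 of those labelled knockout. With a replicate block 6 members of the list fell, and without a filter on low counts 45 did. Between 54 and 56 of the 56 interferon-stimulated genes stayed below 0 in each fit without 1 library.

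The lower interferon-stimulated share was seen at low and high percentiles of cells. In macrophages thinned to 3000 UMIs the median cell of the wild-type libraries had 0.700% and 0.600% of its UMIs from the interferon-stimulated list, and the median cell of the libraries labelled knockout 0.400% and 0.467%, against 0.433% in each sham library. At the 90th percentile the values were 1.77% and 1.50% in wild type, 0.967% and 1.20% in the knockout-labelled libraries and 0.933% in both sham libraries. At the 10th percentile they were 0.267% and 0.233% against 0.167% in both libraries labelled knockout. The wild-type values were higher at each of these points, and the exact permutation p was 0.333 for each, the smallest possible here. At the 99th percentile the second library labelled knockout reached 2.87%, nearer to the second wild-type library at 3.33% than to its own partner at 1.94%.

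**Figure D3:**
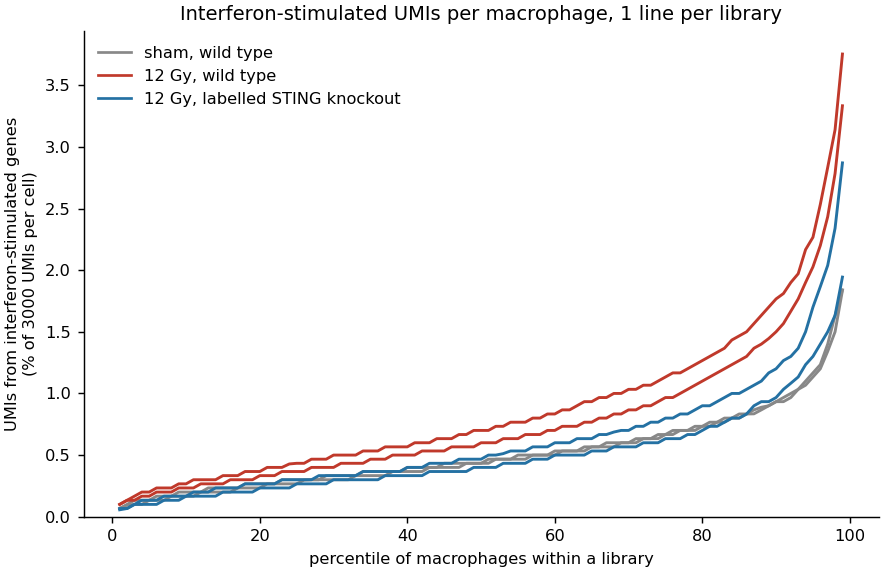
Share of a macrophage's UMIs that came from interferon-stimulated genes, in percent of 3000 UMIs per cell, against the percentile of macrophages within a library, with 1 line per library. The lines of the wild-type irradiated libraries lie highest, with medians of 0.700% and 0.600%, while those labelled knockout start beside sham and the second of them rises away from it above the median to 2.87% at the 99th percentile.

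A set of genes differed between the groups in the same direction in macrophages, T cells, B cells and endothelial cells alike. In 5998 genes the higher of the group means was at least 10 CPM in each of the 4 lineages. A gene could thus enter through the group where it was high. Of these genes, 218 were higher and 258 lower in both libraries labelled knockout than in both wild-type libraries in every lineage. By at least 1 on the log2 scale throughout, 3 were higher and 2 lower. Gm10076, a predicted gene named after its values were seen, fell in each lineage, with log2 fold changes of -2.24, -2.10, -2.52 and -2.32 and edgeR adjusted p of 0.00157, 0.00697, 0.00369 and 7.63e-05 in macrophages, T cells, B cells and endothelial cells.

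AY036118 and Gm42418, which the annotation places across a ribosomal RNA repeat on chromosome 17 and on opposite strands of the same bases, were higher. AY036118 was at 27.5 and 24.3 CPM in wild-type macrophages and 92.2 and 93.7 CPM in those labelled knockout, and at 76.5 and 101 CPM against 441 and 358 CPM in endothelial cells. Aldh1a3 was likewise higher outside macrophages, at 0.388 and 1.46 CPM against 29.9 and 25.7 CPM in endothelial cells (edgeR adjusted p = 0.0016), and at 0 and 0.342 CPM against 9.44 and 13.4 CPM in B cells (edgeR adjusted p = 0.118). The genotype and any other difference that held for a whole library, such as its preparation, cannot be told apart for genes that differed alike in unrelated lineages. Irf7 is among them: it was lower without overlap in all 4 lineages, in T cells at 59.1 and 80.2 CPM against 46.2 and 35.3 CPM (log2 fold change -0.80 ± 0.31, edgeR adjusted p = 0.76). Rtp4, Ifi27l2a and Ifi35 of the interferon-stimulated list, named after their values were seen, were likewise lower without overlap in all 4.

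Transcripts of other cell types were also present in the lineage sums. All 10 neutrophil markers had a positive log2 fold change in macrophages (median 0.68), 9 of them with groups that did not overlap against 26.2% of all genes, and their summed level was 562 and 1334 CPM in wild type, 1613 and 1761 CPM in the knockout-labelled libraries and up to 7558 CPM in sham. In B cells the neutrophil markers summed to 4846 and 6073 CPM against 15765 and 9488 CPM, with 6 of 10 higher in both libraries labelled knockout against 23.1% of all genes. In T cells they summed to 875 and 3218 CPM against 5053 and 4435 CPM, with 6 of the 9 tested likewise higher against 18.7% of all genes. Erythroid markers, 5 haemoglobin and heme genes, summed in macrophages to 54.9 and 338 CPM against 122 and 6.67 CPM and did not follow the groups. In B cells they summed to 1346 and 340 CPM against 6.09 and 9.32 CPM. The 9 fibroblast markers in macrophages summed to 250 and 236 CPM against 426 and 199 CPM, and the 7 mural markers to 16.6 and 21.8 CPM against 61.4 and 17.02 CPM. The 12 cardiomyocyte markers followed the groups in macrophages, with 11 below 0 and 9 lower without overlap, against 27.1% of all genes. Their median was -0.40, and they summed to 308 and 267 CPM against 235 and 213 CPM. None of these markers was called in macrophages and none was at 0 over the 4 libraries. Their part in the gene differences was not tested.

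**Figure D4:**
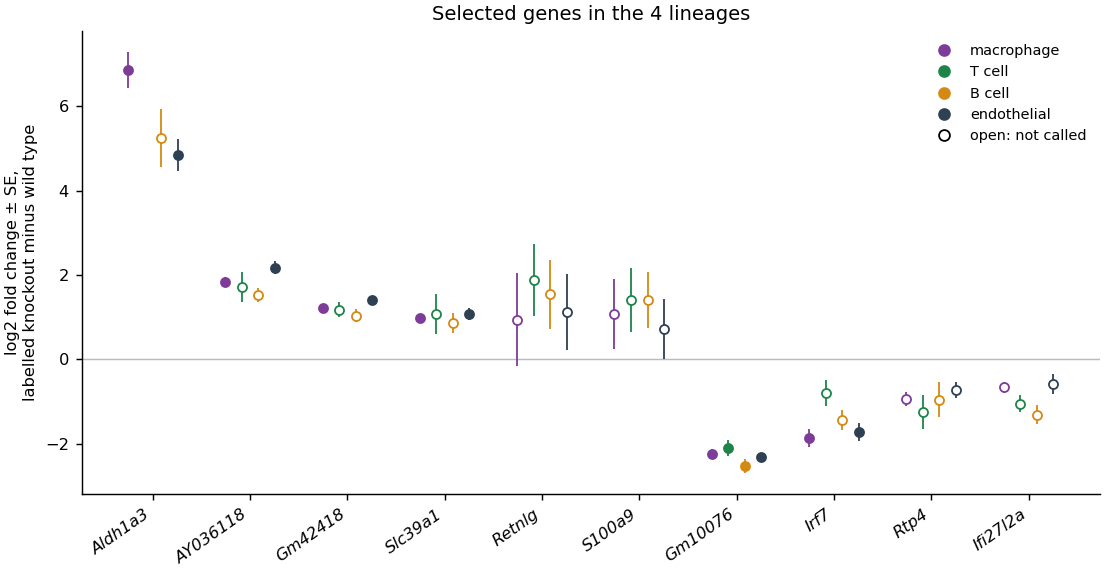
Log2 fold change with its standard error for 10 genes in macrophages, T cells, B cells and endothelial cells, libraries labelled STING knockout minus wild type, with open symbols where the edgeR adjusted p was at or over 0.05. Aldh1a3, not tested in T cells, is at 6.86 in macrophages and 4.85 in endothelial cells, and Gm10076 lies between -2.10 and -2.52 in all lineages.

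Endothelial cells had 11 genes that passed (0.094%) of 11701 tested, 4 that rose (0.0342%) and 7 that fell (0.0598%). Irf7 fell there as well, from 200.3 and 171 CPM in wild type to 42.3 and 72.3 CPM, with 70.3 and 69.1 CPM in sham (log2 fold change -1.72 ± 0.22, edgeR adjusted p = 0.0392). It was the 1 interferon-stimulated gene of 54 tested that passed, the list's median was -0.37, and 47 of 54 were below 0. In 27 of them both libraries labelled knockout lay below both of wild type, against 23.9% of all genes. The second library labelled knockout did not keep to that order for all members: Ifit3 was at 103 and 107 CPM in wild type and at 30.9 and 115 CPM in the knockout-labelled libraries, and Cxcl10 at 48.1 and 131 CPM against 43.1 and 319 CPM. For these 2 genes, named after their values were seen, the groups overlapped.

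Nr1d1, a repressor of the circadian clock, fell in endothelial cells from 94.3 and 113 CPM to 46.2 and 45.0 CPM, and sham had 46.1 and 37.1 CPM (log2 fold change -1.18 ± 0.14, edgeR adjusted p = 0.0291). Colec11, a soluble lectin of the complement system, fell from 55.1 and 52.8 CPM to 27.8 and 27.1 CPM, below sham at 56.3 and 54.1 CPM (log2 fold change -0.97 ± 0.12, edgeR adjusted p = 0.0365). The respiratory chain gene mt-Nd3 fell from 1511 and 1658 CPM to 953 and 862 CPM, and 12 of 13 mitochondrially encoded genes were below 0 with a median of -0.31. In B cells and over all cells 12 of the 13 were also below 0, each of the 12 without overlap, and none was called. Of all genes, 21.8% in B cells and 26.8% over all cells were lower in this way. All 7 mural markers were lower in endothelial cells, 6 without overlap, against 23.9% of all genes there. Their median was -0.72, with sums of 3195 and 2503 CPM against 1820 and 1645 CPM. All 5 erythroid markers were lower without overlap, beside the same 23.9% of all genes, and summed to 1247 and 1926 CPM against 902 and 753 CPM. None of these markers was called, and their part in the endothelial differences was not tested. No cell cycle gene passed in endothelial cells, where 31 of 37 were above 0 with a median of 0.42. In 17 of the 37 the groups did not overlap and the libraries labelled knockout were higher, against 22.8% of all genes. Mki67, the proliferation marker, was at 28.3 and 24.4 CPM against 52.0 and 60.9 CPM (edgeR adjusted p = 0.175). Of 20 capillary and arterial genes none was called, with a median of -0.10. Apln, the peptide of endothelial tip cells, was at 331 and 227 CPM in wild type, 359 and 432 CPM in the knockout-labelled libraries and 46.1 and 48.6 CPM in sham.

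B cells and T cells each had 1 gene called, Gm10076, which fell (0.00965% of 10366 and 0.0142% of 7032 genes), with 1210 and 449 genes at an unadjusted p under 0.05. In B cells Irf7 was at 62.8 and 60.1 CPM in wild type and 24.7 and 20.7 CPM in the knockout-labelled libraries (log2 fold change -1.44 ± 0.23, edgeR adjusted p = 0.271), and Ifi27l2a at 841 and 1141 CPM against 421 and 379 CPM. Neither passed, and the groups did not overlap. The median of the 54 tested interferon-stimulated genes was -0.34 in B cells, and in 26 of them the libraries labelled knockout lay lower without overlap, against 21.8% of all genes. Of 22 B cell identity and maturation genes none was called, with a median of -0.04. Nuclear respiratory chain genes had a median of -0.30 in B cells, with 41 of 42 below 0 and none called.

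In T cells the 42 tested interferon-stimulated genes had a median of -0.23 and 32 were below 0, with 11 lower without overlap against 18.6% of all genes. The checkpoint and regulatory list had a median of -0.83 over 11 genes and no call. Within it Icos, a costimulatory receptor, was at 149 and 272 CPM in wild type and 87.8 and 110 CPM in the knockout-labelled libraries, and Tox, a transcription factor of chronically stimulated T cells, at 74.7 and 78.5 CPM against 50.8 and 37.1 CPM (edgeR adjusted p of 0.741 for both). Tcf7, a factor of naive and memory T cells, was at 165 and 212 CPM against 370 and 259 CPM with the same adjusted p. The 21 effector and cytotoxicity genes had a median of -0.49 and summed to 13787 CPM in the first wild-type library against 4930 to 6947 CPM in the other 3, and in that first library the 8 markers of NK cells summed to 2042 CPM against 373 CPM in the second and 260 and 990 CPM in the knockout-labelled libraries. The T cell sums of the 4 libraries rested on 571511 to 1066601 UMIs each.

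**Figure D5:**
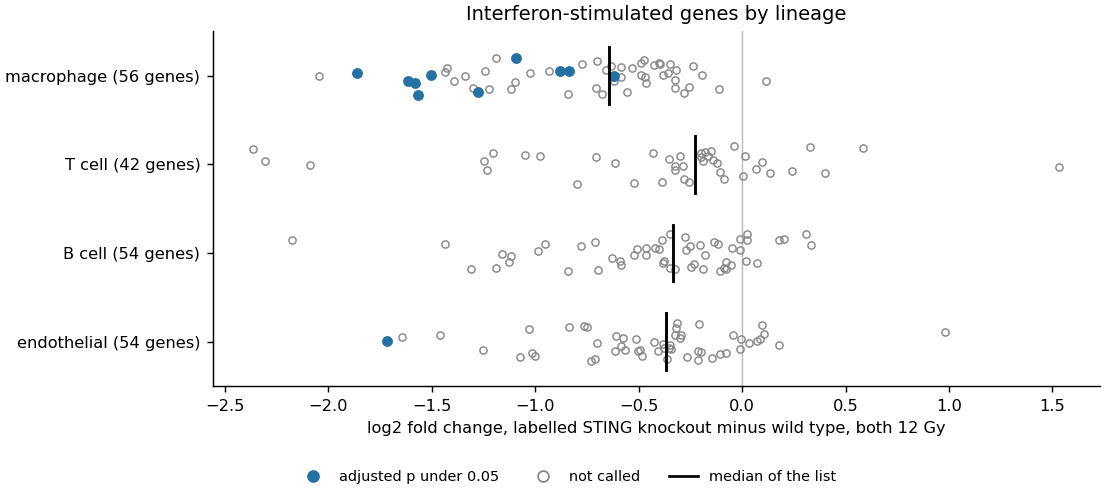
Log2 fold change of each tested interferon-stimulated gene in the 4 lineages, libraries labelled STING knockout minus wild type, with filled points at an edgeR adjusted p under 0.05 and a black bar at the median. The medians are -0.64 in macrophages, -0.23 in T cells, -0.34 in B cells and -0.37 in endothelial cells, and the filled points are 10 in macrophages and 1, Irf7, in endothelial cells.

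Whether the genotype difference itself differed between lineages was tested by an interaction of lineage and group, the library entering as a blocking factor. Against T cells 5 of 12987 genes passed (0.0385%), and against B cells and endothelial cells 0 of 13189 and 0 of 14398 did by edgeR, with 734 and 982 at an unadjusted p under 0.05. For Irf7 the macrophage difference minus that of the other lineage was -1.05 ± 0.36 against T cells, -0.38 ± 0.28 against B cells and -0.17 ± 0.12 against endothelial cells, with edgeR adjusted p of 1, 0.895 and 0.874. For Cxcl10 it was -2.07 ± 0.73 against endothelial cells (edgeR adjusted p = 0.618). Against T cells and B cells the Cxcl10 value had the other sign, at 0.80 ± 0.57 and 0.83 ± 0.74, and did not pass either. For these 2 genes the difference between lineages was thus tested and did not pass. The larger number of calls in macrophages does not show that their effect was larger there.

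Over all kept cells together 4 of 15895 genes passed (0.0252%), 2 that rose and 2 that fell (0.0126% each): Aldh1a3 and AY036118 were higher, and Gm10076 and G530011O06Rik, a transcript opposite Mid1 exons, were lower. None of the 56 interferon-stimulated genes was called in that sum, with a median of -0.59 and 54 below 0. In 48 of them the groups did not overlap, against 26.8% of all genes that were lower in this way. In a sum over cells, a smaller share of a cell type and less RNA per cell cannot be told apart. All 12 further T cell markers were lower in both libraries labelled knockout, summing to 246 and 224 CPM in wild type against 136 and 158 CPM, and none was called.

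With cells meeting more than 1 lineage rule left out, the lineages' shares of kept cells overlapped between the groups. Macrophages made up 43.9% and 35.8% of the wild-type libraries and 36.9% and 38.1% of those labelled knockout (exact permutation p = 1). T cells made up 3.12% and 2.34% against 2.03% and 2.95%, B cells 10.9% and 16.6% against 10.4% and 12.4%, and endothelial cells 6.04% and 5.40% against 10.9% and 5.66% (exact permutation p = 0.667 for each). The first library labelled knockout set the endothelial difference. With those cells kept, in each lineage whose rule they met, the groups no longer overlapped for 3 lineages. T cells then made up 7.36% and 7.47% of wild type against 4.77% and 5.32%, macrophages 53.2% and 47.9% against 45.0% and 45.4%, and endothelial cells 9.08% and 9.53% against 14.5% and 9.61% (exact permutation p = 0.333 for each, the smallest possible). The sort and the limit on mitochondrial UMIs, which removed 23.2% and 31.2% of wild-type barcodes and 29.0% and 33.4% of the others, can set such shares.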

How the data were processed

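CD45+ cardiac cells were profiled with the 10x Genomics 3′ version 3 chemistry, per the labels' protocols. The authors deposited 1 matrix a library of unnormalised UMI counts over 32285 genes, made with Cell Ranger 5.0.0 on mm10, per the submitters' processing notes, which also name Seurat 3 without a role. Deposited total counts were 32967187 and 58813701 UMIs in the irradiated wild-type and 59446833 and 59675213 in the irradiated knockout-labelled libraries. No source used here says whether introns or strand were considered in counting.

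Cells with at least 200 genes and at most 10% mitochondrial UMIs were kept, and counts were summed per library and lineage. Cells meeting more than 1 lineage rule were left out, which also removes doublets between lineages, since scrublet in scanpy 1.11.5 marked at most 3 cells of a library. Sums of all 6 libraries were fitted with edgeR 4.0.16 in R 4.3.3 (filterByExpr, TMM factors, quasi-likelihood F test, 3 residual degrees of freedom), with Benjamini-Hochberg adjustment over all genes tested in a fit and a threshold of 0.05. SE is the fold change divided by the square root of F. The lineage markers themselves were not tested in their own lineage. CPM values use TMM effective library sizes. Per-cell shares were compared by two-sided exact permutation over libraries. Genome positions are from GENCODE vM21 (GRCm38), which matched 99.8% of the genes. DESeq2 1.42.0 and other settings were alternatives, and the fits were tested on simulated data.

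Named genes are the called genes at 10 CPM or more whose groups do not overlap, up to 12 per direction and without Gm, Rik, immunoglobulin and T cell receptor genes, up to 4 per list by adjusted p, where fewer than 5 were called the 5 with the smallest p, and 5 per interaction. Genes named outside it are said to be chosen after their values were seen, and Ccl2, Ccl7, Ifit3 and Cxcl10 outside macrophages, the genes shown across lineages and markers of other cells were also picked with values known. The members, lists and tests were chosen with earlier results of these data known. Deviations of same-numbered libraries correlated between -0.12 and 0.21, with no common sign, and no label says that a number is shared, so the replicate number was not used as a block. Some results are not reported here.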

Additional observations from a re-analysis of the deposited data

Results flagged for a closer look

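For 5 genes the genotype difference in macrophages differed from that in T cells by the edgeR interaction test. Cxcl1, a neutrophil attractant, had an interaction of -3.80 ± 0.45 on the log2 scale (adjusted p = 0.0026). Macrophages had 87.6 and 304 CPM in wild type and 75.7 and 124 CPM under the knockout label, and T cells 0 and 15.0 CPM against 49.3 and 55.1 CPM. Cxcl2, of the same family, had an interaction of -1.61 ± 0.24 (adjusted p = 0.0153), with 361 and 361 CPM in wild-type T cells and 665 and 805 CPM in those labelled knockout, against 3102 and 4822 and 2398 and 2845 CPM in macrophages. The neutrophil markers in T cells were higher in the libraries labelled knockout as well, and their part in these 2 genes was not tested.

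Ifng, the interferon gamma gene, had an interaction of -2.50 ± 0.34 (adjusted p = 0.0082). It was at 130 and 85.2 CPM in wild-type T cells and 70.8 and 170 CPM in those labelled knockout, which overlap, and at 4.02 and 2.36 CPM against 0.338 and 0.919 CPM in macrophages. The haemoglobin genes Hba-a2 and Hba-a1 had interactions of -3.98 and -3.82 (adjusted p of 0.0153 and 0.0275). In T cells Hba-a2 was at 0 and 50.1 CPM in wild type and 308 and 0 CPM in the knockout-labelled pair, so single libraries set the value.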

How the results depend on the processing

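Directions held better than calls. All 84 macrophage calls kept their direction in every alternative that fitted them. The count of 84 became 423 with DESeq2, 875 without a filter on low counts, 48 with a replicate block (39 of them shared), 4 at a mitochondrial limit of 5%, 9 with cells meeting 2 lineage rules kept, 154 with every cell thinned to 3000 UMIs, a setting chosen after seeing the data, and 4 to 87 without 1 library. Of the 10 interferon-stimulated calls in macrophages, none passed at the 5% limit or with those cells kept, and 6 members of the list passed with the block. In other settings more members fell than the 10. They numbered 35 with DESeq2, 45 without a filter, 16 with the highest scrublet scores removed, 16 with stricter lineage thresholds and 18 after thinning. In all cells the count of 4 became 247 with DESeq2, 98 without a filter, 2 with the 4 irradiated libraries alone, 1 with the replicate block, 1 at the 5% limit, 7 after thinning and 0 to 2 without 1 library. In endothelial cells 11 became 77 with DESeq2, 516 without a filter, 7 with the 4 libraries, 5 with the block, 5 at the 5% limit, 5 with looser lineage thresholds, 3 with cells of 2 lineages kept and 4 to 83 without 1 library. In T cells 1 became 4 with DESeq2, 111 without a filter, 0 at the 5% limit, 7 with cells of 2 lineages kept, 6 after thinning and 0 to 1 without 1 library. In B cells 1 became 13 with DESeq2, 236 without a filter, 5 with the 4 libraries, 2 with the highest scrublet scores removed, 15 with cells of 2 lineages kept, 7 after thinning and 0 to 12 without 1 library. The interaction counts of 5, 0 and 0 against T, B and endothelial cells became 34, 56 and 217 without a filter, and 5 became 1 with the 4 libraries. The T cell share difference of -0.24 percentage points was 0.44 at the 5% limit, 0.38 after thinning and -2.37 with cells of 2 lineages kept, where the B cell difference of -2.32 points was -5.48, the last setting added after seeing the data for shares, and the difference in macrophages with a Cd163 UMI of -0.79 points was 2.14 without thinning. The causes were not tested. The replicate numbers gave correlations of deviations from -0.12 to 0.21 between groups, so they are not taken to pair libraries. Where a fit left 1 library in a group, that library was assumed to vary like the others.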
